A study of Mus musculus with 8 samples.

Results

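The genes of the major histocompatibility complex (MHC) and of antigen processing were followed in whole 4T1.13 mammary tumours. Members were the rows of the count table whose Entrez identifier maps to a mouse symbol with the prefix H2-, together with B2m, Cd74, Ciita, Nlrc5, Tap1, Tap2, Tapbp, Psmb8, Psmb9, Psmb10, Psme1, Psme2, Erap1 and Cd1d1, and with 4 pseudogenes left out. This gave 48 of the 27179 genes in the table, namely 27 class I members, 11 class II members, 9 antigen processing members and H2-Ke6, a neighbour in the complex that shares only the prefix and encodes a metabolic enzyme. Of the 48 members, 39 lie on chromosome 17, where the mouse MHC is. A total of 36 members passed the filter on low counts and were tested.

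The tumours came from BALB/c mice, and 4 were grown from 4T1.13-miR-21-KD and 4 from 4T1.13-VC cells. 4T1.13 is a metastatic mouse mammary carcinoma line. The miR-21-KD cells carry a lentiviral miArrest vector, driven by the H1 promoter, whose transcript sequesters mature miR-21, and the VC cells carry the same vector with a scrambled sequence. Each line was a pool of several single-cell clones, so a difference between groups and one between clones cannot be told apart. Both groups were immunocompetent hosts of the same strain, and per the labels 100000 cells were placed in the mammary fat pad and tumours were taken on day 14. Replicate numbers 1 to 4 follow the labels, which do not say whether each tumour came from its own mouse, so the p-values measure the spread between these samples.

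MHC class I molecules sit on nearly all nucleated cells and present peptides made in the cytosol to CD8+ T cells. The peptides are cut by the proteasome, in which interferon gamma swaps in the immunoproteasome subunits Psmb8, Psmb9 and Psmb10, then carried into the endoplasmic reticulum by the Tap1 and Tap2 transporter and loaded onto a heavy chain paired with B2m. MHC class II molecules are made mainly by dendritic cells, macrophages and B cells and present peptides from endosomes to CD4+ T cells. Their assembly needs the invariant chain Cd74, their loading needs H2-DM, which H2-DO restrains, and their transcription needs the coactivator Ciita, while Nlrc5 plays the matching part for class I.

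Totals were 12134849 to 13592695 counts in VC and 12550898 to 12783800 in miR-21-KD tumours, and a count of 0 allows up to 3 counts, or 0.221 to 0.247 CPM (counts scaled to library size), by counting error only. Mir21a, the gene of miR-21, had a count of 0 in all 8 tumours, so the counts do not check the knockdown. VC replicate 4 was the highest VC tumour in 10 of 10 tested class II, 15 of 16 class I and 8 of 9 processing members. It stood apart in B cell markers, whose summed level was 163 CPM there against 1.99 to 5.46 CPM in the other VC tumours. Results are given with it and, for many of them, also without it. Markers of carcinoma and epithelium summed to 1297 to 2249 CPM in VC and 903 to 1661 CPM in miR-21-KD tumours, in which Krt8 and Krt18 were the most abundant, while 5 of the 7 were called higher and 1, Krt18, lower (2 lower with the replicate block), with a median log2 fold change of 1.52. Leucocyte markers summed to 1004 to 1876 and 2071 to 2927 CPM. In whole tumours, fewer cells of a type and less RNA per cell cannot be told apart. Of the 14382 genes tested by edgeR's quasi-likelihood test with Benjamini-Hochberg adjustment, 39.1% passed an adjusted p of 0.05, with 19.6% higher and 19.5% lower on the miR-21-KD side, and the median log2 fold change was -0.01.

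Promoters of MHC genes have long been known to carry short motifs. These are the X box and Y box shared by class I and class II and, in class I, sites for interferon-responsive and NF-kappaB factors. The stretches below are shown so that class II and class I promoters can be set beside each other. They are RefSeq sequences of GRCm38.p6, which is C57BL/6J and not BALB/c, and each ends before the annotated start. Capitals mark matches on either strand to the Y box letters TGATTGG, to X box letters ACTGNTGA, to the interferon response letters GAANNGAAA and to the kappaB letters GGGGATTCC, all chosen after the sequences had been read. Promoter windows were matched for 40 of the 48 members, with H2-Ab1, Cd74, Ciita, H2-Q1, H2-T24, Cd1d1, Nlrc5 and Tap2 unmatched.
H2-Aa: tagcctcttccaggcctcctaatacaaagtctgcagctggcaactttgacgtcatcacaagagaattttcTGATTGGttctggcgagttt
H2-Eb1: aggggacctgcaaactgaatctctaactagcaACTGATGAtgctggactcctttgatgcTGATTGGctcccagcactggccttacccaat
H2-DMb1: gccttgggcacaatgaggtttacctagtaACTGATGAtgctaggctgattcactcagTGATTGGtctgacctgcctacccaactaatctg
H2-Ob: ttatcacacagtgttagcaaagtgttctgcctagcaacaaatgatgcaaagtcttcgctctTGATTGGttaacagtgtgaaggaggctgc
H2-D1: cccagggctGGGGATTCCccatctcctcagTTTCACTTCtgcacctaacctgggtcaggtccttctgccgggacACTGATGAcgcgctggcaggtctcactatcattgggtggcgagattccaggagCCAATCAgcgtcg
H2-Q6: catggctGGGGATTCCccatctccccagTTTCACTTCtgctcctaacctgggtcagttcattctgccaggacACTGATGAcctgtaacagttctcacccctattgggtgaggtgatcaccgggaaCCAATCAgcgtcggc
H2-M2: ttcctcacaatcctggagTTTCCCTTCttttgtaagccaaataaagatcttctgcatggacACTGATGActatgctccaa
B2m: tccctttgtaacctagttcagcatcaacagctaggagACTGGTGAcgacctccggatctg
The stretches lie at chr17:34287854-34287943 (minus strand) for H2-Aa, chr17:34305747-34305836 (plus) for H2-Eb1, chr17:34153071-34153160 (plus) for H2-DMb1 and chr17:34238785-34238874 (plus) for H2-Ob. Those of class I lie at chr17:35262914-35263053 (plus) for H2-D1, chr17:35424670-35424809 (plus) for H2-Q6, chr17:37483635-37483714 (minus) for H2-M2 and chr2:122147567-122147626 (plus) for B2m.

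Over the whole windows of 300 bases, the Y box letters stood in 6 of the 7 tested class II members with a window and in 7 of the 12 tested class I members, against 7.82% of all 32851 promoter windows. The X box letters stood in 2 of the 7 and 8 of the 12, against 4.03% of all windows. Interferon response letters stood in 0 of the 7 and 8 of the 12, against 7.52%, and kappaB letters in 0 of the 7 and 4 of the 12, against 0.250%. Of the 11 class I members that were not tested, 8 held the Y box letters and 0 held any of the other letters. Of 8 processing members with a window, 2 held Y box, 0 X box, 1 interferon response and 0 kappaB letters. A match is a description of these letters and not evidence of binding, and where letters are missing nothing follows about the factor.

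Class II transcripts were on average higher in miR-21-KD tumours, but no class II member passed the unpaired test, and 1 VC tumour held as much of them as the miR-21-KD tumours. Of the 11 class II members, 10 were tested, all 10 had a log2 fold change above 0, from 0.52 to 1.23 with a median of 0.92, and 0 were called against 19.6% of all tested genes called higher. At an unadjusted p under 0.05, 3 of the 10 were higher in edgeR's quasi-likelihood test, against 25.3% of all tested genes. With the replicate number as a block 7 of the 10 were called, against 23.0% of all tested genes. DESeq2 called 4 of the 10 (23.9% of all tested genes), limma-voom 1 (19.8%) and limma-voom with sample quality weights 8 (28.1%).

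Cd74, the invariant chain, was at 1029, 679, 1175 and 2770 CPM in VC replicates 1 to 4 and at 3745, 2027, 2133 and 3362 CPM in miR-21-KD replicates 1 to 4. VC replicate 4 lay above miR-21-KD replicates 2 and 3, while the other VC tumours lay below every miR-21-KD tumour. The means were 1413 ± 928 and 2817 ± 866 CPM (SD, n = 4 each), with a log2 fold change of 1.00 (SE 0.43, 95% interval 0.03 to 1.96, adjusted p = 0.091 in edgeR's quasi-likelihood test).

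VC replicate 4 also stood among the miR-21-KD tumours in the chains of the peptide-binding dimers. H2-Aa, the alpha chain of I-A, was at 197, 115, 207 and 584 CPM in VC tumours and at 776, 395, 417 and 746 CPM in miR-21-KD tumours. H2-Ab1, its beta partner, was at 141, 80.5, 160 and 407 CPM and at 584, 326, 338 and 604 CPM. H2-Eb1, the beta chain of I-E, was at 211, 126, 230 and 658 CPM and at 952, 447, 487 and 895 CPM. In all 3 chains VC replicate 4 was above miR-21-KD replicates 2 and 3 and below replicates 1 and 4, and VC replicate 2 was lowest. The log2 fold changes were 1.08 (SE 0.49), 1.23 (SE 0.47) and 1.18 (SE 0.50), with adjusted p = 0.105, 0.066 and 0.091 in edgeR's quasi-likelihood test.

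The alpha chain of I-E, H2-Ea, is annotated as a pseudogene in the reference strain and was therefore no member, whereas BALB/c mice are known to express it. Its counts gave 307, 157, 275 and 778 CPM in VC and 1044, 528, 533 and 918 CPM in miR-21-KD tumours, and VC replicate 4 was again above miR-21-KD replicates 2 and 3. The log2 fold change of H2-Ea was 0.99 (SE 0.47, adjusted p = 0.120 in edgeR's quasi-likelihood test). In the same test it was 1.18 with the replicate block (adjusted p = 0.020) and 1.61 without VC replicate 4 (adjusted p = 0.013). The ratio of H2-Aa to H2-Ab1 counts was 1.29 to 1.44 in VC and 1.21 to 1.33 in miR-21-KD tumours. Relative to H2-Eb1, H2-Aa stood at 0.888 to 0.934 in VC and 0.815 to 0.884 in miR-21-KD tumours, and H2-Ea at 1.18 to 1.45 and 1.03 to 1.18. In both of these ratios every miR-21-KD tumour was below every VC tumour, a difference that was not tested. Per kilobase of exons, where levels of genes can be compared, Cd74 was at 842 ± 553 in VC and 1678 ± 516 CPM per kb in miR-21-KD tumours, above H2-Eb1 (158 ± 123 and 358 ± 136), H2-Ab1 (76.8 ± 56.1 and 180 ± 59.0) and H2-Aa (72.6 ± 55.2 and 154 ± 54.1). H2-Aa per kilobase was 0.819 to 0.970 of H2-Ab1 and below it in all 8 tumours.

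In the genes that load class II, VC replicate 2 was again the lowest tumour. H2-DMa, a chain of the peptide editor, was at 44.5, 37.3, 54.6 and 122 CPM in VC and at 133, 81.0, 84.9 and 124 CPM in miR-21-KD tumours. H2-DMb1, a beta chain of the editor, was at 23.7, 15.2, 28.3 and 69.2 CPM and at 81.6, 48.3, 43.4 and 72.0 CPM. H2-DMb2, the other beta chain, was at 10.5, 7.34, 16.9 and 49.9 CPM and at 46.7, 28.4, 28.6 and 48.9 CPM. VC replicate 4 held more H2-DMb2 than every miR-21-KD tumour, and for the other chains it lay among them. The log2 fold changes of 0.71, 0.85 and 0.85 (SE 0.37, 0.44 and 0.55) had adjusted p = 0.149, 0.149 and 0.239 in edgeR's quasi-likelihood test.

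H2-Ob, the beta chain of the inhibitor H2-DO, was at 1.18, 1.20, 1.18 and 15.1 CPM in VC and at 5.98, 3.62, 2.68 and 14.3 CPM in miR-21-KD tumours. H2-Oa, its alpha partner, was at 1.25, 0.319, 0.709 and 5.64 CPM and at 4.77, 2.20, 3.17 and 5.87 CPM. In each group the tumour numbered 4 held the most of both chains. H2-DO is known as a product of B cells in particular. Summed B cell markers were also highest in the tumour numbered 4 of each group, at 5.46, 1.99, 3.15 and 163 CPM in VC and at 14.7, 10.3, 9.58 and 78.4 CPM in miR-21-KD tumours. The part of B cells in the H2-DO levels was not tested. The ratio of summed H2-DO to summed H2-DM counts was 0.0862 in VC replicate 4 and 0.0823 in miR-21-KD replicate 4 against 0.0189 to 0.0412 in the other 6 tumours. The log2 fold changes were 0.52 for H2-Ob (95% interval -1.63 to 2.66, adjusted p = 0.685 in edgeR's quasi-likelihood test) and 1.02 for H2-Oa (-0.70 to 2.73, adjusted p = 0.303).

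Ciita, the coactivator, was at 19.2, 12.0, 20.9 and 47.3 CPM in VC and at 57.1, 33.7, 27.2 and 42.0 CPM in miR-21-KD tumours. VC replicate 4 was above 3 of the 4 miR-21-KD tumours. The log2 fold change was 0.69 (SE 0.41, adjusted p = 0.199 in edgeR's quasi-likelihood test). H2-Eb2, the class II member that was not tested, had 1 to 28 counts.

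**Figure D1:**
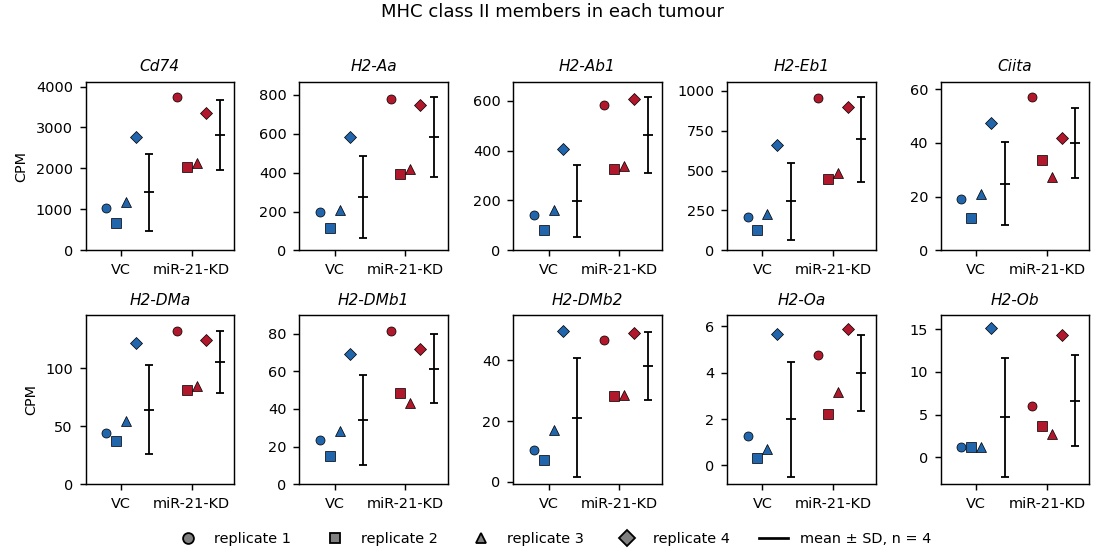
CPM of the 10 tested class II members (vertical axis, linear and different in each panel) in the 4 VC (blue) and 4 miR-21-KD (red) tumours, with a symbol for each replicate number and mean ± SD bars, n = 4. VC replicate 4 (diamond) lies among or above the miR-21-KD tumours in every panel, and the other 3 VC tumours lie below all miR-21-KD tumours.

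Without VC replicate 4, all 10 tested class II members were called higher, against 20.4% of all tested genes, with a median log2 fold change of 1.73. H2-Aa then had a log2 fold change of 1.75 with adjusted p = 0.010, and H2-Ob 2.47 with adjusted p = 0.020 in edgeR's quasi-likelihood test. With the replicate number as a block, which compares tumours of the same number, 7 of the 10 were called higher in the quasi-likelihood test, and the median was 1.16. These were H2-Ab1 (adjusted p = 0.011), H2-Eb1 (0.014), H2-Aa (0.016), Cd74 (0.021), H2-DMa (0.039), H2-DMb1 (0.043) and H2-Oa (0.045), with H2-DMb2 at 0.053, H2-Ob at 0.070 and Ciita at 0.088. Within the pairs, on log2(CPM + 1), 7 of the 10 were higher in the miR-21-KD tumour of all 4 pairs, as were 29.3% of all tested genes, and the median difference was 1.80, 1.59, 0.81 and 0.05 in pairs 1 to 4. With the block and pair 4 left out, all 10 were called, against 18.2% of all tested genes.

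Some markers of dendritic cells, macrophages, leucocytes, T cells and fibroblasts were called higher in miR-21-KD tumours. In the summed level of the first 4 of these lists VC replicate 4 was the highest VC tumour, below every miR-21-KD tumour for dendritic cells, macrophages and leucocytes and above miR-21-KD replicate 3 for T cells. The summed level of H2-Aa, H2-Ab1, H2-Eb1 and Cd74 was 1578, 999.6, 1773 and 4420 CPM in VC and 6057, 3195, 3374 and 5607 CPM in miR-21-KD tumours. Of 8 dendritic cell markers 4 were called higher and 0 lower, where 19.6% and 19.5% of all tested genes were, with a summed level of 61.9 to 190 CPM in VC and 242 to 393 CPM in miR-21-KD tumours. Against the same 19.6%, 7 of 10 macrophage and monocyte markers were called higher (3371 to 5278 against 6245 to 10617 CPM), and 4 of 5 leucocyte markers. Of 4 tested B cell markers 0 were called by edgeR's quasi-likelihood test, 0 had an unadjusted p under 0.05, and their median log2 fold change was -0.64. T cell markers, 4 of 7 called higher against 19.6%, summed to 39.5 to 155 CPM and 134 to 308 CPM. Fibroblast markers, 4 of 6 called higher against 19.6%, summed to 1652 to 3835 CPM in VC and 5601 to 11905 CPM for miR-21-KD, without overlap. Of 5 endothelial markers 0 were called by edgeR's quasi-likelihood test and 1 in each direction with the replicate block, and their sums of 380 to 657 and 544 to 765 CPM overlapped. Among the B cell markers, Pax5 had a count of 0 in 2 tumours and Fcer2a in 1. When 1 tumour was left out, the share of all tested genes called higher was 18.9%, 11.6%, 9.90% and 20.4% without VC replicates 1 to 4 in turn and 12.9%, 22.5%, 13.6% and 12.1% without miR-21-KD replicates 1 to 4. Leaving out VC replicate 3 brought the calls to 3 of 10 for macrophages, 2 of 5 for leucocytes and 2 of 6 for fibroblasts. Calls for T cells fell to 1 without VC replicate 3 and to 2 without miR-21-KD replicate 1 or 4, and rose to 7 without VC replicate 4. Without VC replicate 4 the B cell list had 1 call, and without miR-21-KD replicate 2 the dendritic cell list had 7. The part of these cells in the class II levels was not tested.

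Set against Ptprc, the pan-leucocyte gene, H2-Aa had a count ratio of 0.972, 0.870, 1.47 and 2.09 in VC and of 1.61, 1.23, 1.29 and 1.99 in miR-21-KD tumours. With VC replicate 4 kept, the means of 1.35 ± 0.559 and 1.53 ± 0.345 (SD, n = 4 each) differed by less than the spread between tumours. VC replicate 4 held the highest ratio, and means without it were not taken. Against Csf1r, the receptor that macrophages depend on, the ratio was 0.271 to 0.974 in VC and 0.453 to 0.779 in miR-21-KD tumours. Against Cd3e of T cells it was 17.2 to 38.2 and 13.3 to 27.5. VC replicate 4 was again the highest tumour in both.

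**Figure D2:**
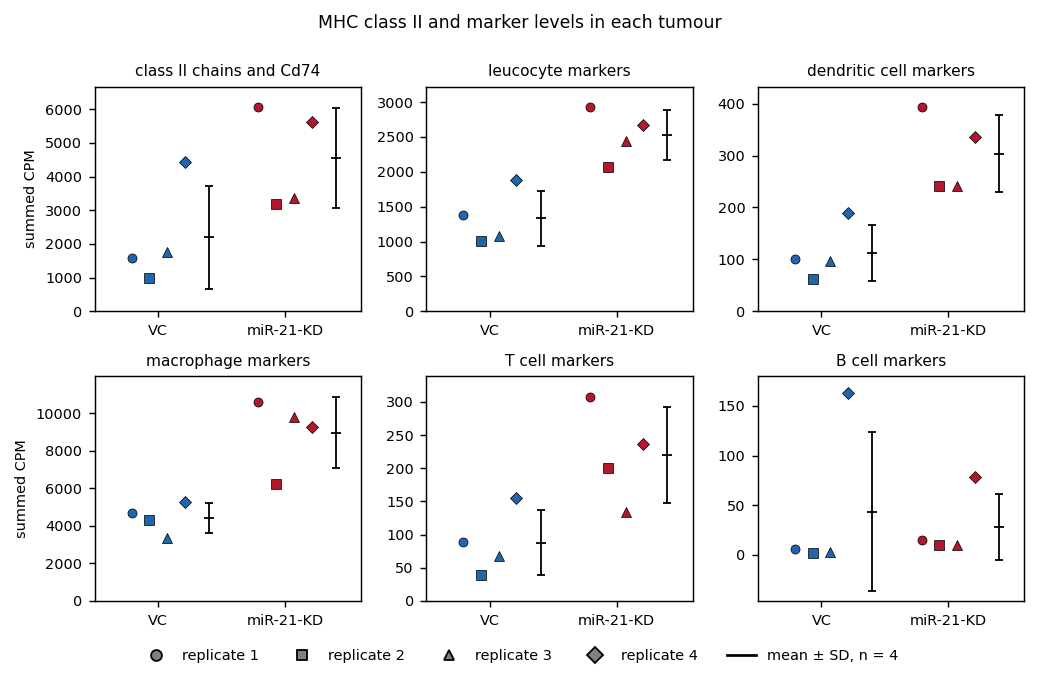
Summed CPM (vertical axis, linear) of H2-Aa, H2-Ab1, H2-Eb1 and Cd74 and of 5 marker lists in the 4 VC (blue) and 4 miR-21-KD (red) tumours, with a symbol for each replicate number and mean ± SD bars, n = 4. Leucocyte, dendritic cell and macrophage markers are above all VC tumours in every miR-21-KD tumour, whereas B cell markers are highest in the 2 tumours numbered 4, at 163 and 78.4 CPM.

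The fold changes of class I members had a lower median than those of class II, a difference that was not tested, and of 16 tested class I members 3 were called higher and 0 lower, against 19.6% of all tested genes called higher. The median log2 fold change was 0.35, and 15 of the 16 were above 0. The called genes were H2-Q6, H2-Q10 and H2-M2, all nonclassical class I genes, and none of the classical heavy chains or B2m was among them. At an unadjusted p under 0.05, 4 of the 16 were higher in edgeR's quasi-likelihood test, with Cd1d1 as the fourth, against the same 25.3% of all tested genes. Reads of class I genes are hard to tell apart, since the genes are near copies of each other and the BALB/c alleles differ from those of the reference, so the split of reads among them is uncertain.

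H2-K1, a classical heavy chain, was at 476, 461, 686 and 854 CPM in VC and at 720, 737, 799 and 925 CPM in miR-21-KD tumours. H2-D1, the other classical chain of the reference, was at 847, 888, 1116 and 1390 CPM and at 1341, 1244, 1293 and 1509 CPM. For both, VC replicate 4 was above 3 miR-21-KD tumours and the other VC tumours were below all of them. The log2 fold changes were 0.36 (SE 0.21, 95% interval -0.11 to 0.83, adjusted p = 0.190) for H2-K1 and 0.35 (SE 0.17, -0.04 to 0.73, adjusted p = 0.133) for H2-D1 in edgeR's quasi-likelihood test. With the replicate block H2-K1 was called higher (0.40, adjusted p = 0.049) and H2-D1 was not (0.37, adjusted p = 0.059), and without VC replicate 4 the values were 0.55 (adjusted p = 0.039) and 0.50 (adjusted p = 0.029).

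B2m, the light chain of every class I molecule, was at 3251, 2827, 3250 and 4154 CPM in VC and at 3643, 3356, 3153 and 3562 CPM in miR-21-KD tumours. The groups overlapped fully, with the highest and the lowest value both in VC tumours. The log2 fold change was 0.02 (SE 0.14, 95% interval -0.30 to 0.35, adjusted p = 0.905 in edgeR's quasi-likelihood test) and changed sign when libraries were scaled by size alone. Per kilobase of exons B2m stood at 3919 ± 650 and 3987 ± 255 CPM per kb, above every other member, with H2-D1 at 411 ± 96.8 and 522 ± 44.7 and H2-K1 at 211 ± 63.7 and 271 ± 31.6.

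H2-Q6 was at 64.9, 66.5, 89.8 and 105 CPM in VC and at 127, 125, 125 and 145 CPM in miR-21-KD tumours, and the groups did not overlap. H2-Q10, which the liver is known to secrete as a soluble protein, was at 19.9, 25.3, 29.6 and 30.2 CPM and at 37.8, 36.0, 44.8 and 48.7 CPM, again with no overlap. These were the only 2 tested members with every miR-21-KD tumour above every VC tumour, a pattern seen in 16.3% of all tested genes. Their log2 fold changes were 0.68 (SE 0.16) and 0.67 (SE 0.16), each with adjusted p = 0.014 in edgeR's quasi-likelihood test. Without VC replicate 4 they were 0.82 (adjusted p = 0.009) and 0.74 (adjusted p = 0.015) in the same test. H2-Q6 and H2-D1 hold the same interferon response and kappaB letters in the stretches printed above. With all tumours and no block H2-Q6 was called and H2-D1 was not, and without VC replicate 4 both were. A link between the letters and the levels was not tested.

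H2-M2, a nonclassical gene at low level, was at 1.99, 1.83, 2.99 and 4.33 CPM in VC and at 15.1, 6.60, 4.22 and 11.6 CPM in miR-21-KD tumours. These were 23 to 53 and 52 to 187 counts, and only VC replicate 4 and miR-21-KD replicate 3 overlapped. The log2 fold change of 1.75 (SE 0.44, adjusted p = 0.018 in edgeR's quasi-likelihood test) was the largest of the tested members. Without VC replicate 2 the call was lost, with an adjusted p of 0.0502.

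The other nonclassical genes were not called. H2-Q7 was at 19.0 to 45.9 CPM in VC and 37.5 to 52.8 CPM in miR-21-KD tumours (log2 fold change 0.56, adjusted p = 0.128 in edgeR's quasi-likelihood test), and H2-Q1 at 4.79 to 10.4 and 10.0 to 14.7 CPM (0.51, 0.129). With the replicate block both were called, with adjusted p = 0.039 and 0.043 in the quasi-likelihood test. H2-Q4 (log2 fold change 0.09), H2-Q2 (0.17) and H2-T23 (0.08), the gene of Qa-1 that NK cell receptors read, had overlapping groups. H2-T22, a ligand of gamma delta T cells, had means of 146 ± 44.2 and 146 ± 23.3 CPM (SD, n = 4 each) and a log2 fold change of 0.00 (95% interval -0.48 to 0.48). H2-T24 and H2-M3, which presents formylated peptides, both had a log2 fold change of 0.35 with adjusted p = 0.189 and 0.177 in the same test.

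Cd1d1, which presents lipids to NKT cells, was at 15.6, 9.09, 12.8 and 18.7 CPM in VC and at 23.2, 19.7, 16.6 and 31.1 CPM in miR-21-KD tumours. Only VC replicate 4 and miR-21-KD replicate 3 were out of order. The log2 fold change was 0.69 (SE 0.26, adjusted p = 0.063 in edgeR's quasi-likelihood test), and with the replicate block adjusted p = 0.012. Nlrc5, the class I coactivator, was at 77.7, 77.2, 111 and 132 CPM and at 130, 127, 79.1 and 100 CPM, with a log2 fold change of 0.13 (95% interval -0.37 to 0.63, adjusted p = 0.663 in the quasi-likelihood test). VC replicate 4 held the most and the other tumours of both groups were mixed.

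**Figure D3:**
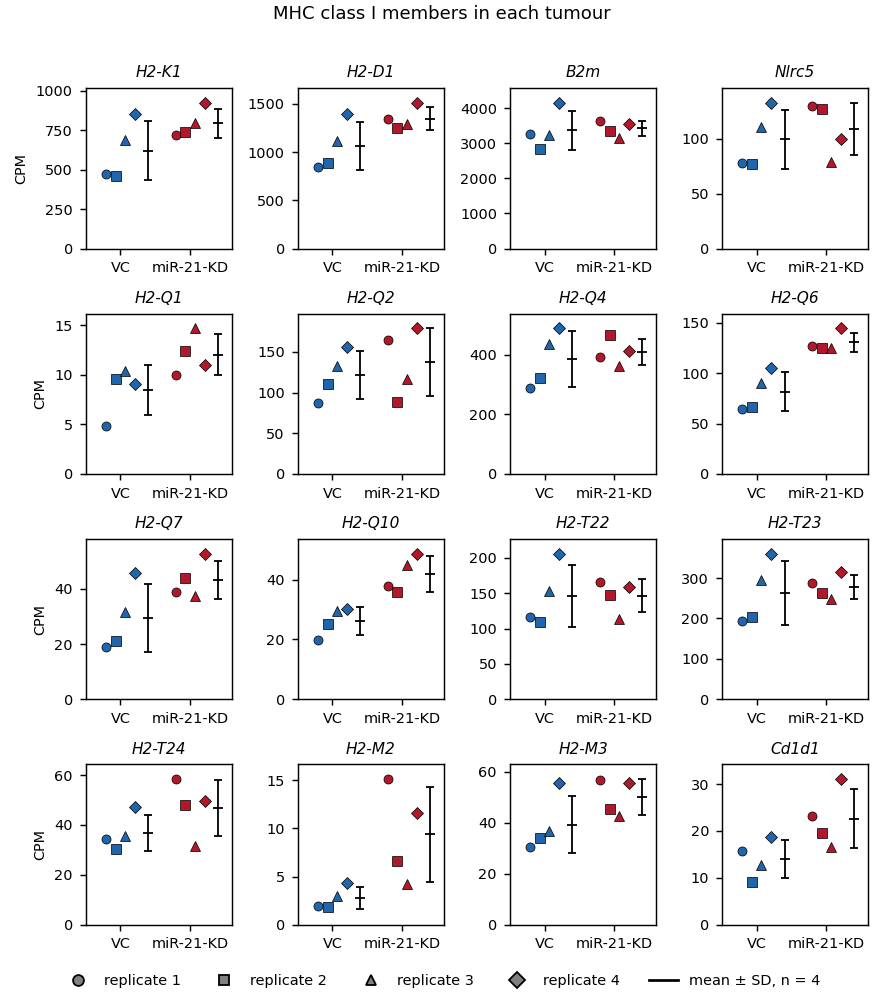
CPM of the 16 tested class I members (vertical axis, linear from 0 and different in each panel) in the 4 VC (blue) and 4 miR-21-KD (red) tumours, with a symbol for each replicate number and mean ± SD bars, n = 4. Only H2-Q6 and H2-Q10 have no overlap between groups, and B2m, H2-T22, H2-T23, H2-Q4 and Nlrc5 have their highest value in VC replicate 4.

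In number, 7 of the 16 class I members were called higher with the replicate block, 8 of the 17 that were tested without VC replicate 4, and 4 of the 16 with DESeq2, where the shares of all tested genes called higher were 23.0%, 20.4% and 23.9%. The calls added without VC replicate 4 were H2-K1, H2-D1, H2-Q7, H2-M3 and Cd1d1. The other 11 class I members had too few counts to be tested. H2-M10.1 and H2-M10.6 had 0 counts in all tumours, H2-M9 had 3 to 13 counts, and H2-M1, H2-M10.2, H2-M10.3, H2-M10.4, H2-M10.5, H2-M11, H2-M5 and H2-T3 had at most 8.

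Of the 9 antigen processing members, all tested, 0 were called higher and 1 lower, against 19.6% and 19.5% of all tested genes. In 0 of the 9 was every miR-21-KD tumour below every VC tumour, a pattern of 18.9% of all tested genes. At an unadjusted p under 0.05 the count was also 0 higher and 1 lower in edgeR's quasi-likelihood test, against 25.3% and 25.4% of all tested genes, and DESeq2 called the same numbers. The median log2 fold change was -0.07. In 9 of the 9 members VC replicate 4 was above at least 1 miR-21-KD tumour, and in 8 it was the highest VC tumour.

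Psme1, a subunit of the interferon-induced proteasome activator PA28, was at 226, 261, 317 and 368 CPM in VC and at 187, 239, 189 and 217 CPM in miR-21-KD tumours. Only VC replicate 1 and miR-21-KD replicate 2 were out of order, and the miR-21-KD tumour was lower in all 4 pairs of the same number, as for 31.4% of all tested genes. The log2 fold change was -0.50 (SE 0.16, 95% interval -0.86 to -0.13, adjusted p = 0.039 in edgeR's quasi-likelihood test), but the call was lost when any 1 tumour other than VC replicate 1 or miR-21-KD replicate 2 was left out, with adjusted p = 0.057 to 0.097 (0.071 without VC replicate 4). Psme2, the partner subunit, was at 64.7, 76.2, 82.7 and 109 CPM and at 57.2, 81.4, 61.8 and 73.4 CPM, with a log2 fold change of -0.28 (SE 0.17, adjusted p = 0.222 in the same test).

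The catalytic subunits of the immunoproteasome had overlapping groups. Psmb8 was at 226, 261, 339 and 439 CPM in VC and at 257, 366, 274 and 307 CPM in miR-21-KD tumours. Psmb9 was at 62.6, 64.1, 106 and 152 CPM and at 114, 132, 102 and 131 CPM. Psmb10 was at 83.8, 111, 157 and 179 CPM and at 100, 137, 100 and 123 CPM. In all 3, VC replicate 4 was the highest of the 8 tumours. The log2 fold changes were -0.07 (95% interval -0.55 to 0.41), 0.32 (-0.31 to 0.94) and -0.21 (-0.73 to 0.32), with adjusted p = 0.810, 0.382 and 0.499 in edgeR's quasi-likelihood test.

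The constitutive counterpart that Psmb10 replaces, Psmb7, was called lower, at 246, 275, 271 and 241 CPM in VC and at 106, 172, 152 and 135 CPM in miR-21-KD tumours (log2 fold change -0.87, SE 0.14, adjusted p = 0.006 in edgeR's quasi-likelihood test). The ratio of Psmb10 to Psmb7 counts was 0.341, 0.405, 0.578 and 0.742 in VC and 0.948, 0.796, 0.659 and 0.910 in miR-21-KD tumours, with only VC replicate 4 above miR-21-KD replicate 3. The ratio of Psmb8 to Psmb5 averaged 13.5 ± 1.91 (SD, n = 4) for VC and 13.8 ± 1.16 for miR-21-KD, closer than the spread between tumours. The ratio of Psmb9 to Psmb6 was 0.479 to 0.932 and 0.736 to 0.971, and VC replicate 4 lay within the range of the miR-21-KD tumours.

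Tap1, a subunit of the peptide transporter, was at 168, 141, 246 and 331 CPM in VC and at 300, 329, 244 and 287 CPM in miR-21-KD tumours. Tap2, its partner, was at 86.0, 92.0, 127 and 148 CPM and at 121, 135, 117 and 131 CPM. The highest of the 8 tumours was VC replicate 4 for both, and the lowest were VC replicates 1 and 2. The log2 fold changes were 0.39 (SE 0.25, adjusted p = 0.238) and 0.16 (SE 0.17, adjusted p = 0.483) in edgeR's quasi-likelihood test, and without VC replicate 4 Tap1 was called higher at 0.64 (adjusted p = 0.037), as was Psmb9 at 0.62 (adjusted p = 0.044).

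Tapbp, or tapasin, which holds class I to the transporter, was at 478, 562, 700 and 662 CPM in VC and at 593, 661, 502 and 582 CPM in miR-21-KD tumours. Erap1, which trims peptides to length, was at 136, 150, 149 and 151 CPM and at 140, 151, 133 and 122 CPM. Their log2 fold changes were -0.04 (95% interval -0.37 to 0.29) and -0.10 (-0.30 to 0.09), and the groups overlapped. H2-Ke6 was at 18.0 to 20.6 CPM and 19.9 to 30.8 CPM, with a log2 fold change of 0.27 and adjusted p = 0.171 in edgeR's quasi-likelihood test.

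**Figure D4:**
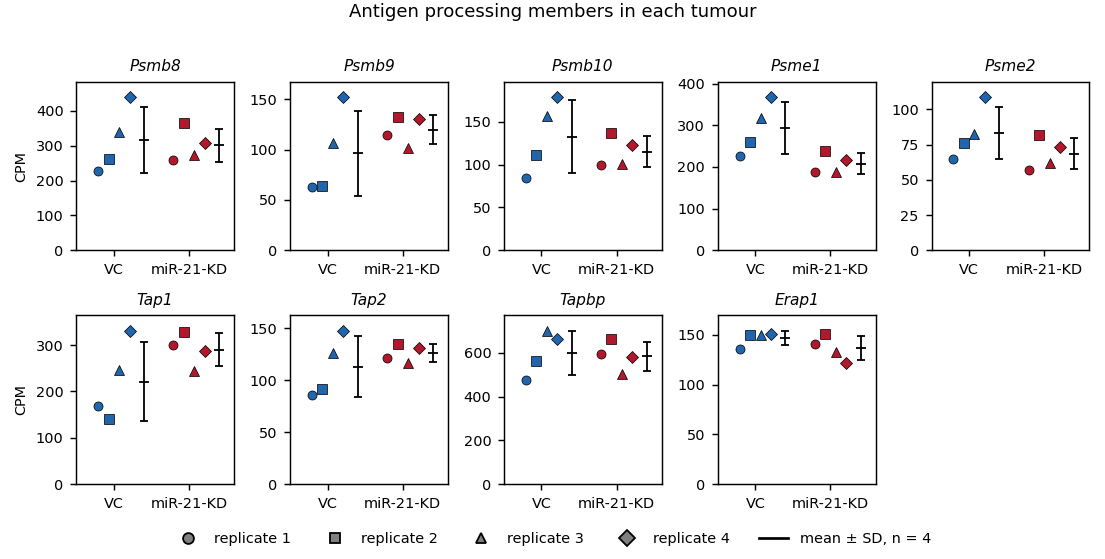
CPM of the 9 antigen processing members (vertical axis, linear from 0 and different in each panel) in the 4 VC (blue) and 4 miR-21-KD (red) tumours, with a symbol for each replicate number and mean ± SD bars, n = 4. The mean of Psme1 is 293 CPM for VC against 208 CPM for miR-21-KD, the groups overlap in every panel, and VC replicate 4 is the highest VC tumour in all panels but that of Tapbp.

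Genes that act beside the members were taken from lists written with earlier results of these data known. Of 13 genes of the class II route, 8 were called higher and 1 lower, against 19.6% and 19.5% of all tested genes, with a median log2 fold change of 0.53. Of these, 5 were called higher when any 1 tumour other than VC replicate 4 or miR-21-KD replicate 2 was left out, and 2 were lower without either of these. The shares of all tested genes called lower were then 16.6%, 10.8%, 10.2% and 18.4% without VC replicates 1 to 4 in turn and 13.7%, 24.3%, 12.2% and 11.1% without miR-21-KD replicates 1 to 4. With the replicate block 2 were called lower, against 22.1% of all tested genes. Lgmn, an endosomal protease, was at 1175 to 1558 CPM in VC and 1854 to 2588 CPM in miR-21-KD tumours (0.77, adjusted p = 0.009 in edgeR's quasi-likelihood test). Marchf1, a ubiquitin ligase that removes class II from the surface, rose by 1.16 (adjusted p = 0.010), Sppl2a, which cleaves the stub of Cd74, by 0.38 (adjusted p = 0.012), and Cd9, a tetraspanin, changed by -0.68 (adjusted p = 0.011) in the quasi-likelihood test. Levels of these 4 did not overlap between groups, unlike those of every class II member.

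Of 13 genes of class I loading and relatives, 2 were called higher and 1 lower, against 19.6% and 19.5% of all tested genes, with a median of -0.05. Fcgrt, the neonatal Fc receptor, a class I relative that pairs with B2m, was at 286, 241, 210 and 261 CPM in VC and at 656, 458, 741 and 725 CPM in miR-21-KD tumours (log2 fold change 1.37, SE 0.17, adjusted p = 0.005 in edgeR's quasi-likelihood test). Hfe, another relative that pairs with B2m and acts in iron balance, had a log2 fold change of 0.85 (adjusted p = 0.011), and Pdia3, a chaperone of the loading complex, of -0.47 (adjusted p = 0.014) in the quasi-likelihood test. All 3 had groups that did not overlap. The lower calls of the list were 2 without VC replicate 4 (18.4% of all tested genes) and 3 without miR-21-KD replicate 2 (24.3%). Of 8 constitutive proteasome genes 1 was called higher and 2 lower, against 19.6% and 19.5% of all tested genes. Psme4 was higher (0.44, adjusted p = 0.007) and Psmb7 and Psma3 (-0.51, adjusted p = 0.016) were lower in the quasi-likelihood test. Psma3 had adjusted p = 0.052 without VC replicate 3, which left 1 lower call (10.2% of all tested genes). Without miR-21-KD replicate 2, 4 stood (24.3%).

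Of 11 genes of MHC transcription, among them the X box factors Rfx5, Rfxap and Rfxank and the Y box factors Nfya, Nfyb and Nfyc, 0 were called in either direction by edgeR's quasi-likelihood test without a block, and 2 were higher and 1 lower at an unadjusted p under 0.05, against 25.3% and 25.4% of all tested genes. The replicate block and DESeq2 each called 2 of the 11 higher, against 23.0% and 23.9% of all tested genes. Of 12 genes of the interferon gamma route, 6 were called higher and 0 lower, against 19.6% and 19.5% of all tested genes, with a median of 0.42. Socs1 (0.66, adjusted p = 0.011), Irf8 (0.61, adjusted p = 0.018) and Ptpn2 (0.40, adjusted p = 0.021), the first and last of which restrain the signal, were higher in the quasi-likelihood test. Without VC replicate 2 the list had 1 call, with Irf8 at adjusted p = 0.052 and Ptpn2 at 0.051, and without VC replicate 3 it had 3, with Irf8 at 0.053. Irf8 was at 0.051 without miR-21-KD replicate 4, and Ptpn2 at 0.057 without miR-21-KD replicate 3.

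Ifng itself was at 1.84, 0.160, 1.97 and 4.01 CPM in VC and at 6.79, 6.05, 2.60 and 6.97 CPM in miR-21-KD tumours, and VC replicate 4 overlapped with miR-21-KD replicate 3 (log2 fold change 1.49, SE 0.66, adjusted p = 0.100 in edgeR's quasi-likelihood test, and 0.040 without VC replicate 4). Irf1, an early target of the interferon, had a log2 fold change of 0.09 (adjusted p = 0.735 in the quasi-likelihood test), and its highest value lay in VC replicate 4.

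The costimulation list also holds the inhibitory ligands PD-L1 and PD-L2. Of its 10 tested genes 5 were called higher and 0 lower, against 19.6% and 19.5% of all tested genes, with a median of 0.85. With the replicate block 8 were called higher, against 23.0%, and without it 3 were called without VC replicate 3 and 9 without VC replicate 4. Pdcd1lg2, the gene of PD-L2, was at 60.9, 21.5, 52.7 and 68.3 CPM in VC and at 233, 163, 181 and 183 CPM in miR-21-KD tumours (log2 fold change 1.90, SE 0.32, adjusted p = 0.006 in edgeR's quasi-likelihood test). Cd274, the gene of PD-L1, rose by 1.02 (adjusted p = 0.013) and Tnfsf4, the gene of OX40 ligand, by 1.54 (adjusted p = 0.015) in the quasi-likelihood test. VC replicate 4 lay below every miR-21-KD tumour for these 3, unlike for the class II members.

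**Figure D5:**
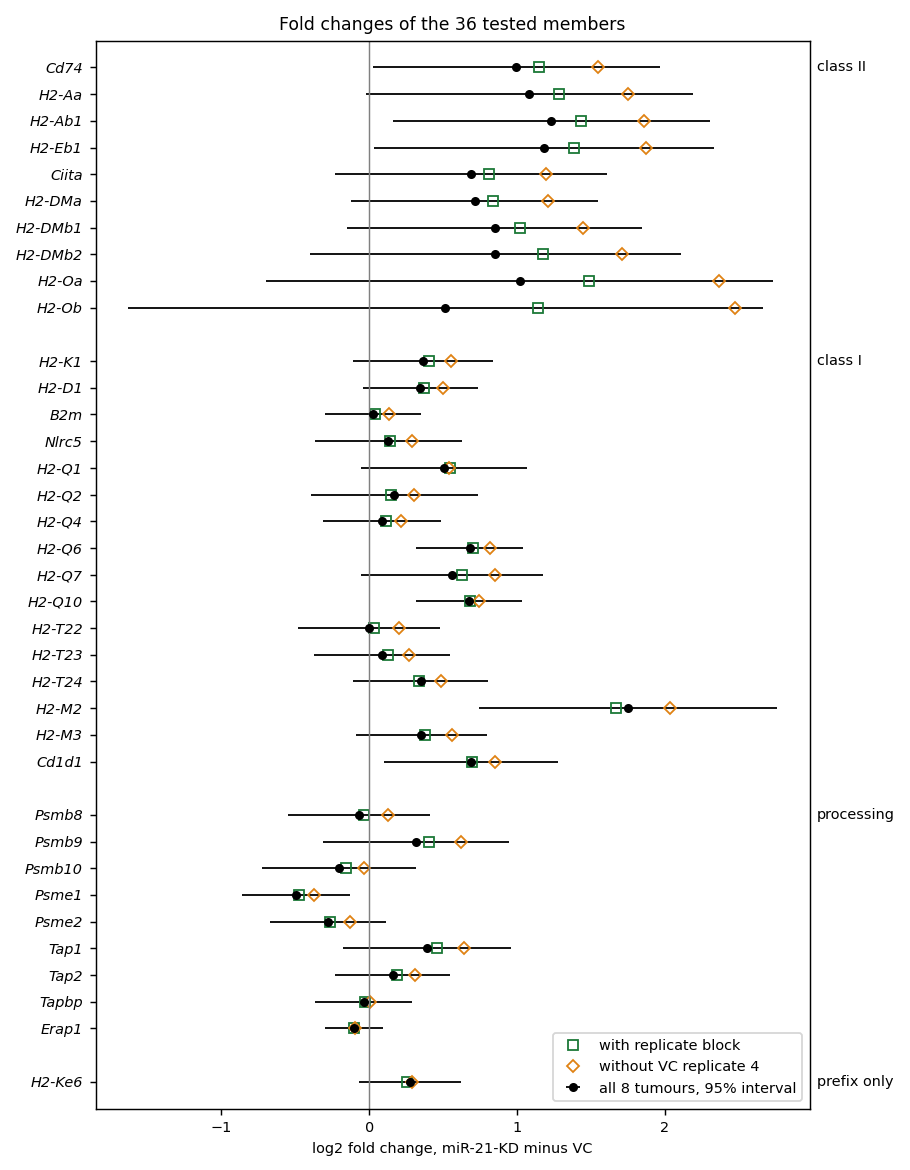
Log2 fold change (horizontal axis, miR-21-KD minus VC) of the 36 tested members by role, with the 95% interval over all 8 tumours (black), the value with the replicate block (green squares) and the value without VC replicate 4 (orange diamonds). Class II members are at 0.52 to 1.23 with all tumours and move furthest without VC replicate 4, whereas processing members lie around 0.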

How the data were processed

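RNA was taken from 8 whole tumours, 4 per group, and the deposited values are raw counts of reads per Entrez gene. The submitters' processing notes name mm10, Subread, featureCounts, edgeR and limma, whereas the annotation, versions and strand setting are not given in the sources used here. The paper gives an earlier day of recovery than the labels, which were followed.

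Symbols from RefSeq GRCm38.p6 matched 25275 of 27179 identifiers. Genes were kept with filterByExpr (minimum count 10, minimum total 15), which left 14382 genes and 99.852% of counts. In R 4.3.3, edgeR 4.0.16 with TMM scaling and the robust quasi-likelihood test compared the groups, with Benjamini-Hochberg adjustment over all tested genes and a threshold of 0.05. CPM are scaled by TMM library size, and the SE comes from the estimate and the F statistic. Exon lengths are merged GENCODE M21 exons. Every member that passed the filter was to be described, with up to 3 genes per direction of each other list and Ifng and Irf1 whatever their p. A few genes that the rule names are not reported. The members and lists were chosen with earlier results of these data known. Alternatives were DESeq2 1.42.0, limma 3.58.1 (voom with and without sample quality weights), library size or upper-quartile scaling, no filter or at least 10 counts in every tumour, a replicate block and each tumour left out.

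After removal of group means, tumours of the same number correlated at 0.272, 0.421, 0.175 and 0.376 over tested genes (mean 0.311, against -0.105 for other combinations), although the labels name no shared animal or batch. The main comparison was unpaired, and the fit with the number as a block was an alternative. The block is given where it changed the call of a member or of H2-Ea, and for some lists. Chi-square per degree of freedom between tumours of a group was 12.6 to 70.7, so none was a repeat of another. On simulated counts of 14259 genes for the comparison of miR-21-KD with VC, the quasi-likelihood test recovered 53.1% of 2-fold and 84% of 4-fold changes, with 6 false calls.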

Additional observations from a re-analysis of the deposited data

Results flagged for a closer look

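Of 158 groups of 4 tumours looked at, 8 had a tumour whose gap to its nearest neighbour as a share of the whole range of the group exceeded Dixon's 95% critical value, and chance gives this in about 5% of groups. H2-Ob was far higher in VC replicate 4 (15.1 CPM) than in the other VC tumours. The summed B cell markers stood apart in VC replicate 4 (163 CPM) and in miR-21-KD replicate 4 (78.4 CPM), and so did the ratio of summed H2-DO to summed H2-DM counts in miR-21-KD replicate 4 (0.0823). H2-Q6 was set apart by a high miR-21-KD replicate 4 (145 CPM), and Erap1 by a low VC replicate 1 (136 CPM). Among the genes beside the members, Lgmn was low in miR-21-KD replicate 2 (1854 CPM) and Cd9 was low in miR-21-KD replicate 1 (215 CPM).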

How the results depend on the processing

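The number of class II calls depended on VC replicate 4 and, with that tumour kept, on the model. Leaving out each tumour in turn gave 0 to 10 class II members called higher, 2 to 8 class I members higher, 0 to 2 processing members higher and 0 to 1 lower, with 1449 to 3290 genes higher and 1487 to 3550 lower overall. For the other lists these ranges were 1 to 3 lower for class I loading, 5 to 9 higher and 1 to 2 lower for the class II route, 1 to 4 lower for the constitutive proteasome, 3 to 9 higher for costimulation, 1 to 6 higher for the interferon gamma route and 0 to 1 in each direction for MHC transcription. With the replicate block the pairing gave 7 class I and 7 class II members, 8 costimulation and 2 MHC transcription genes higher and 2 class II route genes lower, and with pair 4 left out as well, an alternative chosen after seeing the data, 5, 10, 8, 0 and 2, with 0 processing members and 0 loading genes lower. Apart from these counts and the members named with the block, the pairing changed no call of a named member. Sample quality weights gave 6 class I, 8 class II, 8 costimulation and 2 MHC transcription genes higher. They gave 3 loading, 2 class II route, 4 proteasome and 3 MHC transcription genes lower. With these weights 28.1% of all tested genes were called higher, and more were called lower than higher. The lower calls for 3 of 13 loading, 2 of 13 class II route and 3 of 11 MHC transcription genes were below 28.1%. Those for 4 of 8 proteasome genes were above it. DESeq2 gave 4 and limma-voom 1 class II member higher. DESeq2, limma-voom and library size scaling gave 2 loading genes lower, DESeq2 2 class II route genes lower, and DESeq2, upper-quartile scaling and the filter of 10 counts 2 MHC transcription genes higher. The last 2 of these settings left 0 processing members lower. DESeq2 called 23.9% of all tested genes higher and fewer lower, and limma-voom called 19.8% higher and more lower. Library size scaling called a larger share of all tested genes lower than the 19.5% of the main fit. Upper-quartile scaling and the filter of 10 counts called a larger share higher than its 19.6%.

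Members near 0 changed sign. B2m became -0.00026 with library size scaling and -0.0080 without a filter. H2-T22 became 0.043 (upper quartile), 0.020 (DESeq2), 0.029 (limma-voom), 0.051 (10 counts), 0.030 (replicate block) and 0.17 (pair 4 left out). Tapbp became 0.0044 (upper quartile), 0.012 (10 counts) and 0.025 (pair 4 left out), and Psmb8 0.13 without pair 4. With quality weights Nlrc5 became -0.046 and Irf1 -0.019. Leaving out each tumour gave -0.057 to 0.13 for B2m, -0.19 to 2.47 for H2-Ob (the lowest without miR-21-KD replicate 4 and the highest without VC replicate 4), -0.027 to 0.22 for H2-Q4, -0.12 to 0.20 for H2-T22, -0.037 to 0.27 for H2-T23, -0.019 to 0.22 for Irf1, -0.20 to 0.12 for Psmb8 and -0.13 to 0.036 for Tapbp. The cause was not tested. Over named genes, 839 values kept sign and call, 62 gained and 18 lost the call. With 4 tumours per group, 2-fold changes could be missed.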

Other observations

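Seen only after the values were known, the members split by the order of their pairs. In 12 of the 36 tested members the miR-21-KD tumour was above its VC tumour in pairs 1 and 2 and below it in pairs 3 and 4, a pattern held by 2.29% of all tested genes. These were 7 of the 9 processing members (Psmb8, Psmb9, Psmb10, Tap1, Tap2, Tapbp and Erap1) and the class I members B2m, Nlrc5, H2-T22, H2-T23 and H2-Q4, and 0 of the 10 class II members. Psmb9 differed by 0.86, 1.03, -0.06 and -0.22 on log2(CPM + 1) in pairs 1 to 4, and Tap1 by 0.84, 1.21, -0.01 and -0.20. Irf1 (0.45, 0.67, -0.36 and -0.33), which acts in the interferon gamma route, had the same signs. Of the 12 genes of that list 2 held the pattern, against 2.29% of all tested genes. In 8 of the 12, Ifng, Irf8 and Socs1 among them, the miR-21-KD tumour was higher in all 4 pairs, as for 29.3% of all tested genes. The cause of the pattern was not tested. VC replicates 3 and 4 were above VC replicates 1 and 2 for Psmb8, Psmb9 and Tap1. Psme1 was lower in all 4 pairs (-0.27, -0.13, -0.75 and -0.76).

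Of the genes left out as pseudogenes, H2-K2 was at 166, 192, 225 and 278 CPM in VC and at 263, 242, 231 and 281 CPM in miR-21-KD tumours, and H2-T10 at 19.5 to 36.5 and 22.6 to 32.8 CPM, with log2 fold changes of 0.24 and 0.10 and adjusted p = 0.245 and 0.718 in edgeR's quasi-likelihood test.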
